A study of Mus musculus with 9 samples.

Results

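The genes described here are 49 spindle checkpoint, chromosomal passenger complex, kinetochore and spindle pole genes of the mouse oocyte, taken by symbol from a fixed gene list, out of 26358 genes in the deposited table. All 49 were found once each, and 48 had enough counts to be tested. The list is one of symbols and its rule uses no measured value, though it was drawn up with earlier results of these data known. RNA sequencing of poly(A)-selected RNA was done on 9 oocyte libraries, 3 in each of 3 groups. Fresh oocytes were not frozen. In cryopreservation-1 the carrier was a cryotop, a narrow film strip for a minimal volume, and the medium held 15% EG (ethylene glycol), 15% DMSO and 0.5 M sucrose. In cryopreservation-2 the carrier was a straw, and the medium held 17.5% EG and 1 M trehalose with PVA, Fe3O4 and GO (graphene oxide) nanoparticles. The methods therefore differ in carrier, cryoprotectant, sugar and nanoparticles at once, and these cannot be told apart. The labels used here name no strain, age, meiotic stage or number of oocytes per library, nor whether the replicates are separate animals or pools, so the p-values reflect only library-to-library spread, which may be technical.

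In meiosis the kinetochore is built on centromeric chromatin marked by the histone variant CENP-A, and it couples each chromosome to spindle microtubules. The spindle assembly checkpoint, made of Mad, Bub and Mps1 proteins, delays anaphase while kinetochores are unattached, and the chromosomal passenger complex, an aurora kinase with INCENP, survivin (Birc5) and borealin (Cdca8), releases faulty attachments. Oocytes lack centrioles and form the spindle from many microtubule organising centres, and they use Aurkc, a germ-cell aurora kinase, beside Aurkb. A fully grown oocyte makes little new RNA, and stored messages are often woken by lengthening of their poly(A) tail through a cytoplasmic polyadenylation element near the 3′ end.

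The 3′ ends of the 9 members with the smallest unadjusted p in cryopreservation-2 against fresh are shown, in that order, because libraries were selected on poly(A). The sequences were read from GENCODE transcripts of the genome build GRCm38, near the end of the longest coding transcript per gene, and are written 5′ to 3′ in the sense of the gene. Capitals mark the polyadenylation signal (AATAAA or ATTAAA) and, where one is present, the cytoplasmic polyadenylation element (TTTTAT or TTTTAAT), each searched on the sense strand. These are 3′ untranslated bases.
Birc5, chr11:117855686-117855715, plus strand: agttttcctaccacggggtaacggAATAAA
Ska3, chr14:57806579-57806608, minus strand: ttgttgttattgtacataatgtaaAATAAA
Bub3, chr7:131571125-131571154, plus strand: aactgttatatttttctgttgtctAATAAA
Spc25, chr2:69193913-69193942, minus strand: tgtattgtaggctctgcttgtgttAATAAA
Cenph, chr13:100759705-100759734, minus strand: TTTTATaacttaaggAATAAAaagAATAAA
Tacc3, chr5:33678934-33678963, plus strand: gtgtgcagagctgggtagccctgtAATAAA
Cenpi, chrX:134362594-134362623, plus strand: tcagattttaaattgctgggcctaAATAAA
Aurkc, chr7:7003042-7003071, plus strand: tttctcTTTTATgaagtgatgttaATTAAA
Aurkb, chr11:69051610-69051639, plus strand: aaattatgaagaacaacaTTTTATAATAAA

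An element was found in the last 100 bases of 13 of the 48 tested members (27.1%), against 19.5% of 13388 tested genes with such a transcript. The median log2 fold change in cryopreservation-2 against fresh was -0.16 for the members with an element and 0.20 for those without, and over all those genes it was -0.26 with and -0.06 without. A match of letters is a description and shows no use of the element. Of the 9 members shown, Cenph, Aurkc and Aurkb had a match in that window; Cenph and Aurkc lay below fresh and Aurkb above it.

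Total counts lay between 49337232 and 80877288 per library, lowest in the 3 cryopreservation-2 libraries. Fresh replicate 3, cryopreservation-1 replicate 3 and cryopreservation-2 replicate 1 stood apart, with no count for 9108, 8421 and 8667 genes; the other libraries had at most 7744 such genes. Oocyte marker genes took 1.54 to 2.41% of counts in every library, with Gdf9 and Zp3 above the floor everywhere. Cumulus and granulosa markers took 0.0950 to 0.177%, most of it Serpine2 (55504 to 94527 counts). Of these 14 markers, 5 were above the floor of 3 counts in every library: Serpine2, Cyp19a1 (1671 to 5264 counts), Nr5a2 (554 to 1421), Kitl (73 to 727) and Fshr (15 to 108). The other 9 were at 0 in at least 1 library, among them Ptx3, Gja1 and Fst, each with counts in 1 library alone. The summed share of the 14 markers, in counts without TMM scaling, was 0.113 to 0.177% in cryopreservation-2 and 0.0950 to 0.126% in fresh. Of the 9 with enough counts to be tested, 4 had a positive and 5 a negative log2 fold change in cryopreservation-2 against fresh. Their median was -0.33, and 0 were called. The part of other cells in the results below was not tested. Of 5 stromal and endothelial markers tested, 3 had a positive and 2 a negative log2 fold change in cryopreservation-2 against fresh. Of 8 dividing cell markers, 4 had a positive and 4 a negative one. Krt8, Myh11 and Mcm5 of these lists were called higher and Rrm2 lower (edgeR, Benjamini-Hochberg adjusted p of 0.026, 0.0404, 0.0327 and 0.0354). Without 1 library in turn these calls were kept in 5, 0, 2 and 1 of 9 fits. Krt8 had 0, 4 and 0 counts in fresh, near the floor, 205, 96 and 122 in cryopreservation-1, and 56, 139 and 36 in cryopreservation-2. Of 7 immune and blood markers, 2 could be tested. Both had a negative log2 fold change in cryopreservation-2 against fresh, and 0 were called. Hba-a1 had 19, 7 and 3 counts in cryopreservation-2 and 0 in every other library. Of the 14 oocyte markers, 10 had a positive log2 fold change in cryopreservation-2 against fresh. Padi6 alone was called, 2.15-fold higher (edgeR adjusted p = 0.0213), and the call was kept in 5 of 9 such fits. In bulk libraries fewer cells of a type and less RNA per cell cannot be told apart.

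The 49 members together took 0.867 to 1.12% of counts in all 9 libraries, and the groups overlapped. Levels were compared between genes as FPKM, a read level scaled to gene length and library size. Cenpn, an inner kinetochore subunit that binds the CENP-A nucleosome, was highest at a mean of 359 FPKM over the 9 libraries. It was followed by Bub1b (297.5), Aurkc (176), Dsn1 (155), Plk1 (135), Cdca8 (118) and Mad2l1 (109). The ranges over the libraries of neighbours in this order overlapped. In contrast Cenpt, Nsl1 and Cenpl had means of 0.231, 0.383 and 0.819 FPKM. Cenpb, a centromere-repeat binding protein, had 0 counts in 7 libraries and 3 and 2 counts in the others, so it was not tested. Its annotated gene lies wholly within Spef1 on the same strand, 4886 bases, and whether its reads were given to Spef1 was not tested.

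**Figure D1:**
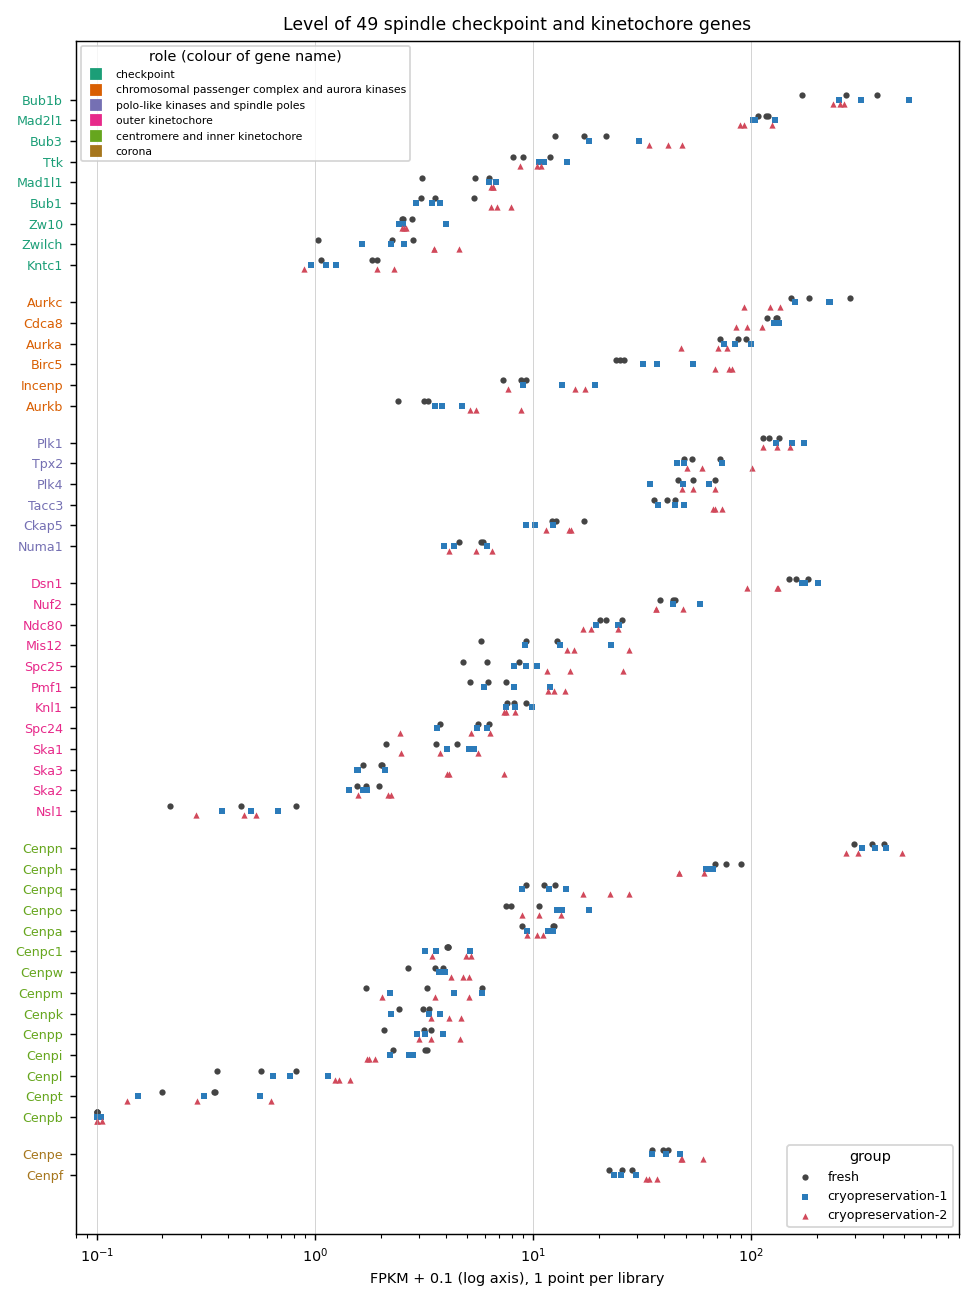
Level of each of the 49 members in each library, as FPKM + 0.1 on a log axis, grouped by role (colour of the gene name) and ordered by mean level, with 1 point per library. Cenpn and Bub1b lie highest, Cenpb sits at the left edge near 0, and members of 1 complex span a wide range of levels.

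The first comparison asks how cryotop-frozen oocytes differ from fresh ones. No member passed the test in cryopreservation-1 against fresh (0 of 48; edgeR quasi-likelihood test, called at an adjusted p under 0.05), and neither did any of the 17545 genes tested (0%). DESeq2 called 0 members and 0.245% of genes, and limma on log2(FPKM + 1) called 0 members and 0% of genes. At an unadjusted p under 0.05 there were 3 members (6.25%), Birc5, Cenpo and Ckap5, against 4.72% of genes. On the scale of the test, CPM (counts scaled to the TMM library size), libraries did not overlap in 4 members (8.33%), against 10.1% of genes. Birc5 and Cenpo lay above all fresh libraries and Cenph and Ckap5 below. Cenpo, an inner kinetochore subunit, was at 7.78, 7.42 and 10.5 FPKM in fresh and 12.7, 13.5 and 17.9 FPKM in cryopreservation-1, a log2 fold change of 0.71 ± 0.25 (SE). Ckap5, a microtubule polymerase, was at 180.5, 147 and 141 CPM in fresh and 110.0, 99.7 and 129 CPM in cryopreservation-1, a log2 fold change of -0.47 ± 0.20. All members had an adjusted p of 1 in this comparison. The median log2 fold change of the members was 0.01, and that of all genes was 0.02.

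The second comparison asks the same of straw freezing with nanoparticles, against the same fresh libraries. In cryopreservation-2, 3 of 48 members rose (6.25%) and 0 fell. Over all genes, 5.38% were called, 3.18% as higher and 2.20% as lower, so the members' share is near that of all genes. The 3 were Birc5, survivin, Bub3, a checkpoint protein that binds phosphorylated Knl1, and Ska3, a subunit of the Ska complex that follows microtubule ends. With a correction for gene length and GC content, edgeR called 7 members, 4 higher and Aurka, Aurkc and Cenph lower, and 49.3% of its called genes were higher, against 59.1% without the correction. DESeq2 called 14 of 48 members (29.2%), 10 higher (20.8%) and 4 lower (8.33%). It called 14.1% of all genes, 7.69% higher and 6.39% lower. On the CPM scale, libraries of the 2 groups did not overlap in 20 of 48 members (41.7%), against 27.5% of genes. Above fresh lay 13 of 48 members (27.1%, against 15.1% of genes), and 7 of 48 lay below (14.6%, against 12.4%). At an unadjusted p under 0.05 there were 17 members (35.4%), against 21.8% of genes. Higher were 11 of 48 (22.9%, against 11.0% of genes) and lower 6 of 48 (12.5%, against 10.8%). On the FPKM scale, which carries no TMM scaling, Mad1l1, Mis12, Cenpk and Cenpw also lay wholly above fresh, and Aurka and Knl1 overlapped it. The members' median log2 fold change was 0.05, against -0.06 over all genes.

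**Figure D2:**
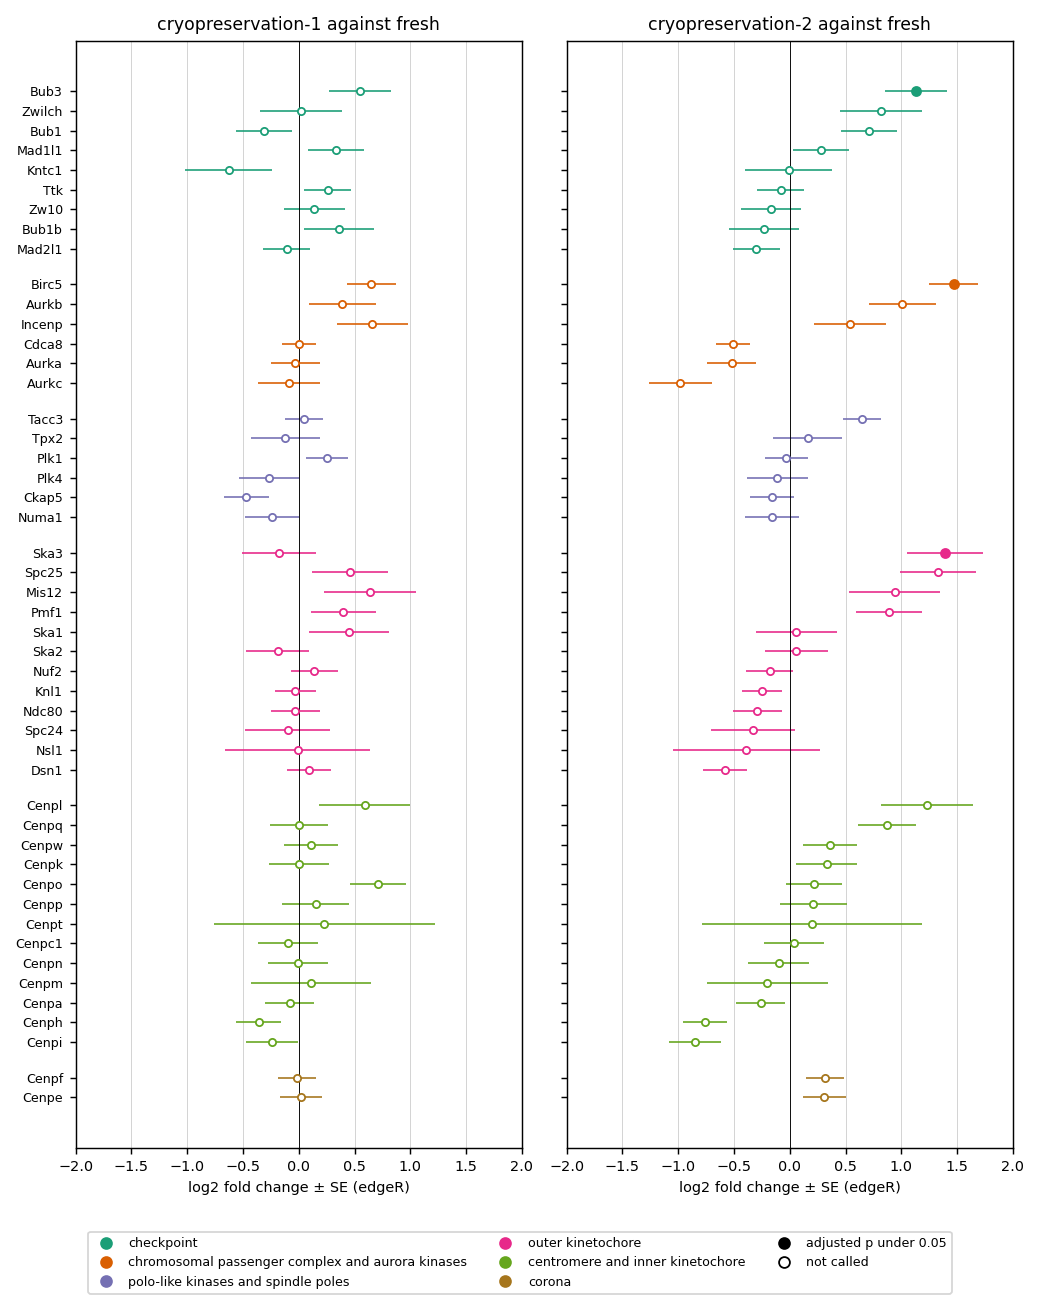
Log2 fold change with its SE (edgeR, 3 libraries a group) of the 48 tested members in each method against the shared fresh libraries, coloured and ordered by role, with filled points for an adjusted p under 0.05. Only Birc5, Bub3 and Ska3 are filled, all in cryopreservation-2; the passenger complex and the outer kinetochore each hold members on both sides of 0.

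Birc5, survivin, was the member with the smallest p. It lies at chr11:117849251-117855743 (GRCm38, plus strand). It was at 23.9, 25.9 and 24.8 FPKM in fresh, 31.9, 54.1 and 36.7 FPKM in cryopreservation-1, and 68.2, 79.0 and 81.3 FPKM in cryopreservation-2. Each cryopreservation-2 library lay above all libraries of the other groups, and each cryopreservation-1 library lay above fresh. The mean rose from 24.9 ± 1.01 to 76.1 ± 7.00 FPKM (SD, n = 3). The fit on TMM-scaled counts, a different scale, gave a 2.77-fold change with a log2 value of 1.47 ± 0.22 (SE, edgeR adjusted p = 0.00916). In cryopreservation-1 the log2 fold change was 0.65 ± 0.22. Leaving out any 1 of the 9 libraries kept the call in cryopreservation-2, with adjusted p between 0.0106 and 0.0419. It was lost without fresh replicate 3, cryopreservation-1 replicate 3 and cryopreservation-2 replicate 1 together (log2 fold change 1.59, adjusted p = 0.0586).

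The partners of Birc5 in the passenger complex did not pass edgeR's test; DESeq2 called Cdca8 lower in cryopreservation-2 against fresh. Cdca8, borealin, was at 130.8, 118 and 129 FPKM in fresh, 134, 134 and 127.5 FPKM in cryopreservation-1, and 84.9, 95.8 and 112 FPKM in cryopreservation-2. The cryopreservation-2 libraries lay below all the others, a log2 fold change of -0.51 ± 0.15 (adjusted p = 0.0864). Incenp, the scaffold, was at 8.67, 7.21 and 9.15 FPKM in fresh, 19.1, 8.89 and 13.4 FPKM in cryopreservation-1 and 7.61, 15.4 and 17.2 FPKM in cryopreservation-2. Its groups overlapped, and its log2 fold change in cryopreservation-2 was 0.54 ± 0.32 (adjusted p = 0.382).

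The aurora kinases lay on opposite sides of fresh, and none passed edgeR's test as fitted. In cryopreservation-2 against fresh, DESeq2 called Aurkb higher and Aurkc lower, limma called Aurkb higher, and edgeR called Aurkc lower with a length correction and Aurka and Aurkc lower with length and GC. Aurkc, the germ-cell kinase, was at 184, 283.5 and 151 FPKM in fresh, 226, 230.4 and 159 FPKM in cryopreservation-1, and 92.8, 122 and 135 FPKM in cryopreservation-2. All 3 cryopreservation-2 libraries lay below every other library, with a log2 fold change of -0.98 ± 0.28 against fresh (adjusted p = 0.0744). Aurkb, the kinase of somatic division, was at 2.30, 3.06 and 3.19 FPKM in fresh, 3.74, 4.62 and 3.44 FPKM in cryopreservation-1, and 5.37, 8.69 and 5.02 FPKM in cryopreservation-2. Each cryopreservation-2 library lay above all libraries of the other groups in FPKM, and the log2 fold change against fresh was 1.01 ± 0.30 (adjusted p = 0.0789). Aurka, which acts at spindle poles, was at 86.6, 94.1 and 71.7 FPKM in fresh, 99.9, 74.9 and 84.2 FPKM in cryopreservation-1, and 47.6, 70.1 and 77.5 FPKM in cryopreservation-2. Its highest cryopreservation-2 library lay within the fresh range on the FPKM scale and below it on the CPM scale, with a log2 fold change of -0.52 ± 0.22 (adjusted p = 0.197). Aurkb and Aurkc are close paralogs, so reads could be shared between them.

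As a description chosen after the values were seen, the ratio of Aurkc to Aurkb FPKM was 80.1, 92.5 and 47.45 in fresh, 60.5, 49.9 and 46.2 in cryopreservation-1, and 17.3, 14.0 and 27.0 in cryopreservation-2. The ratio of Birc5 to Cdca8 was 0.183, 0.220 and 0.192 in fresh, 0.238, 0.404 and 0.288 in cryopreservation-1, and 0.803, 0.824 and 0.726 in cryopreservation-2. For both ratios the cryopreservation-2 libraries did not overlap with the others. The ratio of Ska3 to the mean of Ska1 and Ska2 did overlap, at 0.616, 0.610 and 1.09 in fresh, 0.638, 0.431 and 0.522 in cryopreservation-1, and 3.29, 1.58 and 1.04 in cryopreservation-2.

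**Figure D3:**
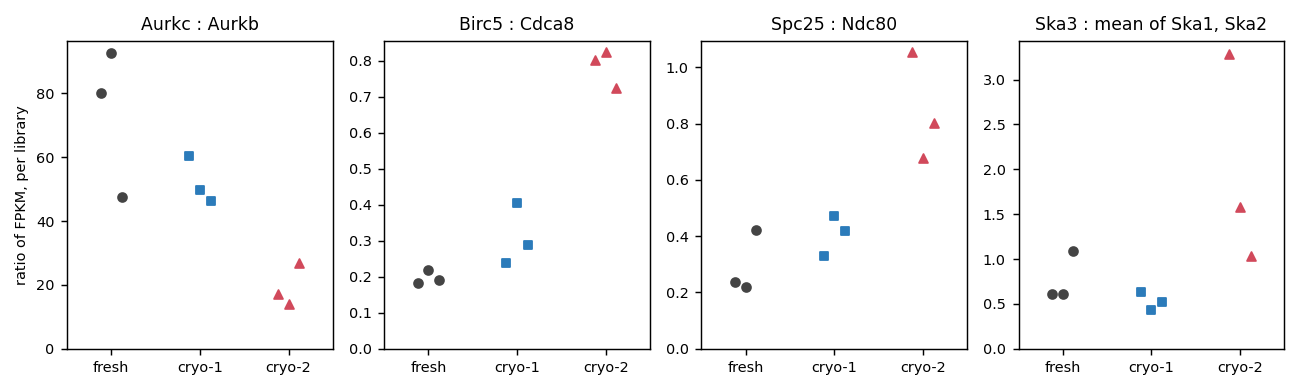
Ratio of FPKM between members of the same role in each of the 9 libraries, on linear axes that start at 0, with groups on the x axis. The ratios were chosen after the values were seen, so the separation shown follows in part from that choice. Aurkc to Aurkb lies between 14.0 and 27.0 in cryopreservation-2 and at 46.2 or more elsewhere, and Birc5 to Cdca8 and Spc25 to Ndc80 lie above all other libraries there, while Ska3 to the mean of Ska1 and Ska2 overlaps fresh in 1 library.

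Of the 9 checkpoint genes, Bub3 rose in cryopreservation-2. It lies at chr7:131560222-131571895 (plus strand). Bub3 was at 12.5, 17.1 and 21.5 FPKM in fresh, 17.99, 30.4 and 30.4 FPKM in cryopreservation-1, and 41.4, 48.2 and 34.0 FPKM in cryopreservation-2. All 3 cryopreservation-2 libraries lay above the other 6, and cryopreservation-1 overlapped fresh. The fit gave 2.20-fold, a log2 fold change of 1.13 ± 0.28 (adjusted p = 0.0467). Its annotated gene overlaps Fgfr2 on the opposite strand over 11674 bases, measured on whole genes with introns. The strand setting of the counting is not given, and overlap of exons was not examined. Whether reads of Bub3 and Fgfr2 were shared was not tested. The Bub3 call was lost on leaving out any 1 of the 9 libraries, with adjusted p between 0.0546 and 0.132 and log2 fold changes between 0.93 and 1.32.

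Its partner Bub1, a checkpoint kinase, was at 5.24, 3.44 and 2.97 FPKM in fresh, 3.62, 3.34 and 2.80 FPKM in cryopreservation-1, and 6.72, 6.33 and 7.81 FPKM in cryopreservation-2. It lay above all other libraries in cryopreservation-2, with log2 fold changes of 0.71 ± 0.25 against fresh (edgeR adjusted p = 0.124) and 1.02 ± 0.25 against cryopreservation-1 (adjusted p = 0.059). DESeq2 called Bub1 higher against fresh, and 6 of 21 alternatives called it higher against cryopreservation-1. Bub1b, the checkpoint protein BubR1, was at 273, 171 and 376 FPKM in fresh, 318, 251 and 530 FPKM in cryopreservation-1, and 267, 256 and 236 FPKM in cryopreservation-2. Its fresh libraries alone spanned the whole range of cryopreservation-2, and the log2 fold change in cryopreservation-2 was -0.23 ± 0.31. Mad2l1, the core inhibitor of anaphase, was at 107, 119 and 117 FPKM in fresh, 101, 104 and 129 FPKM in cryopreservation-1, and 124, 88.9 and 92.3 FPKM in cryopreservation-2, and overlapped throughout (log2 fold change -0.30 ± 0.21).

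Ttk, the kinase Mps1 that starts checkpoint signalling, was at 11.9, 8.03 and 8.87 FPKM in fresh, 11.1, 10.5 and 14.2 FPKM in cryopreservation-1, and 10.3, 10.7 and 8.61 FPKM in cryopreservation-2. The fresh and cryopreservation-2 libraries overlapped, and the log2 fold change was -0.08 ± 0.21. Zwilch, with Zw10 and Kntc1 a part of the complex that brings Mad proteins and dynein to kinetochores, lay above all fresh libraries in cryopreservation-2, at 3.41, 3.42 and 4.46 FPKM against 2.71, 2.15 and 0.928 FPKM. Zw10 and Kntc1 overlapped fresh, with log2 fold changes of -0.17 ± 0.27 and -0.01 ± 0.39. Zwilch's own log2 fold change was 0.82 ± 0.37 (adjusted p = 0.23). Mad1l1, the kinetochore anchor of Mad2l1, had a log2 fold change of 0.28 ± 0.25.

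Of the 12 outer kinetochore genes, Ska3 rose in cryopreservation-2. It lies at chr14:57806561-57826163 (minus strand). It was at 1.92, 1.56 and 1.898 FPKM in fresh, 2.005, 1.47 and 1.45 FPKM in cryopreservation-1, and 7.28, 4.03 and 3.94 FPKM in cryopreservation-2. The lowest cryopreservation-2 library was above all of the other 6, and replicate 1 was the highest. The fit gave 2.62-fold against fresh, a log2 fold change of 1.39 ± 0.34 (adjusted p = 0.0414). The other Ska subunits did not pass the test. Ska1 was at 4.38, 3.49 and 2.03 FPKM in fresh and 2.38, 3.64 and 5.47 FPKM in cryopreservation-2, and Ska2 at 1.86, 1.62 and 1.46 FPKM against 2.05, 1.47 and 2.13 FPKM. Both overlapped, with log2 fold changes of 0.06 ± 0.36 and 0.06 ± 0.28. The Ska3 call was lost on leaving out any 1 of the 9 libraries, with adjusted p between 0.0603 and 0.109, and without cryopreservation-2 replicate 1 the log2 fold change was 1.03.

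The Ndc80 complex, the main microtubule coupler, held members with unlike values too. Spc25 was at 6.03, 4.67 and 8.48 FPKM in fresh, 8.05, 9.17 and 10.4 FPKM in cryopreservation-1, and 25.8, 11.4 and 14.7 FPKM in cryopreservation-2. It lay above all other libraries in cryopreservation-2, with a log2 fold change of 1.33 ± 0.34 against fresh and an edgeR adjusted p of 0.0517, just above the threshold of 0.05. DESeq2 and limma with either pseudocount called Spc25 higher against fresh. Ndc80 was at 25.6, 21.4 and 20.1 FPKM in fresh, 24.4, 19.4 and 24.8 FPKM in cryopreservation-1, and 24.5, 16.9 and 18.3 FPKM in cryopreservation-2. Ndc80, Nuf2 and Spc24 overlapped fresh, with log2 fold changes of -0.29 ± 0.22, -0.18 ± 0.21 and -0.33 ± 0.38. The ratio of Spc25 to Ndc80 FPKM was 0.236, 0.218 and 0.422 in fresh, 0.331, 0.472 and 0.418 in cryopreservation-1, and 1.05, 0.677 and 0.801 in cryopreservation-2.

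In the Mis12 complex, which joins the inner to the outer kinetochore, Dsn1 was at 148, 160.0 and 182 FPKM in fresh, 176, 171 and 201 FPKM in cryopreservation-1, and 132, 130.5 and 95.8 FPKM in cryopreservation-2. Its cryopreservation-2 libraries lay below all the others, with a log2 fold change of -0.58 ± 0.20 (adjusted p = 0.123). Pmf1, of the same complex, lay above fresh at 12.4, 14.0 and 11.7 FPKM against 5.03, 7.37 and 6.11 FPKM, with 0.89 ± 0.30 (edgeR adjusted p = 0.11). DESeq2 and limma with either pseudocount called Pmf1 higher. Mis12 and Nsl1 had log2 fold changes of 0.94 ± 0.41 and -0.39 ± 0.66, with overlap on the CPM scale. Knl1, the platform for Bub proteins, was at 88.1, 88.1 and 75.7 CPM in fresh and 71.6, 67.7 and 72.6 CPM in cryopreservation-2, a log2 fold change of -0.25 ± 0.18 (adjusted p = 0.486).

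**Figure D4:**
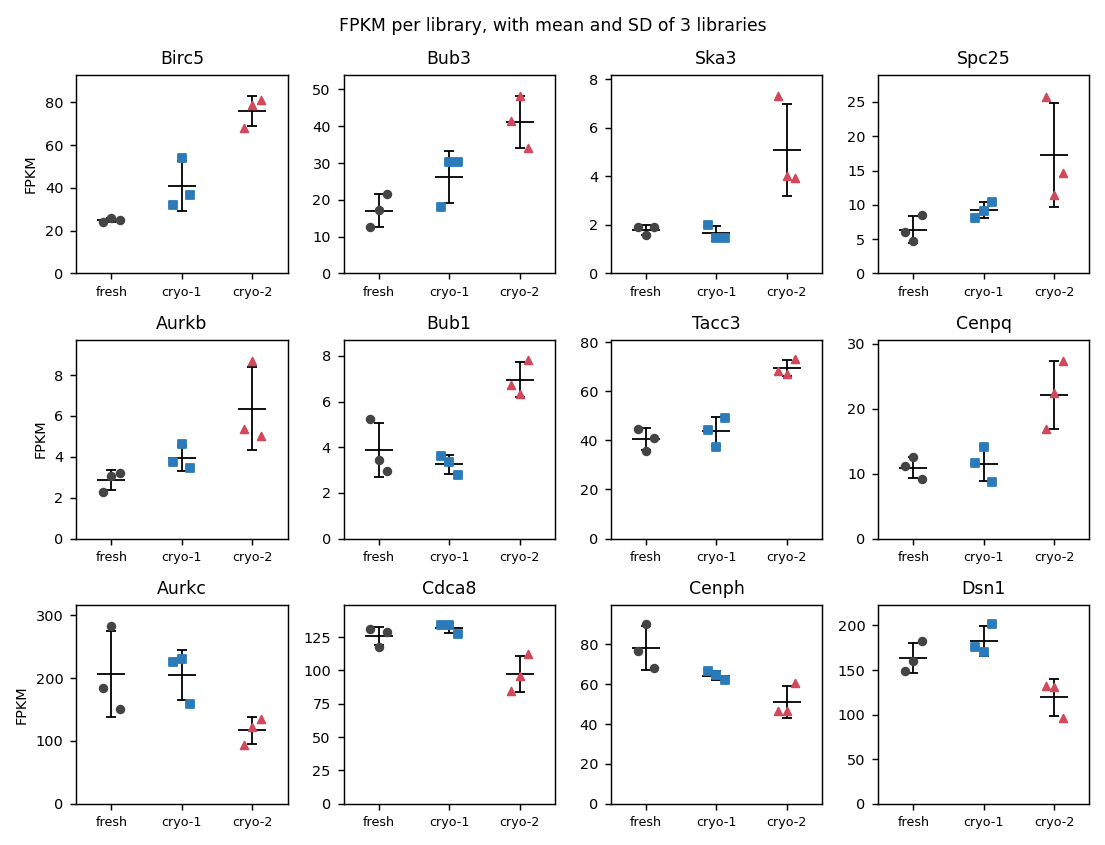
FPKM of 12 members in each library, with points for libraries, a bar for the mean and whiskers for the SD of 3 libraries, on axes that start at 0. All 12 are among the 20 of 48 members whose cryopreservation-2 and fresh libraries did not overlap on the CPM scale. The separation shown therefore follows from the choice of genes. In Birc5, Bub3 and Ska3 every cryopreservation-2 library lies above every fresh library, and in Aurkc, Cdca8, Cenph and Dsn1 every one lies below.

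No member of the centromere and inner kinetochore group passed edgeR's test as fitted in any comparison. Against fresh in cryopreservation-2, edgeR called Cenph lower with RLE scaling, with a length correction, and with length and GC. With length and GC it also called Cenpl higher, and limma with either pseudocount called Cenpq higher. Against cryopreservation-1, edgeR with a length correction called Cenpq higher in cryopreservation-2. In cryopreservation-2 against fresh, 4 of 13 had an unadjusted p under 0.05 (30.8%), against 21.8% of all genes, and DESeq2 called Cenph and Cenpi lower and Cenpl and Cenpq higher, against 14.1% of all genes. Cenph was at 76.8, 90.0 and 67.9 FPKM in fresh, 66.5, 64.4 and 61.9 FPKM in cryopreservation-1, and 46.5, 46.4 and 60.5 FPKM in cryopreservation-2. Its groups did not overlap with fresh, and its log2 fold change was -0.76 ± 0.20 in cryopreservation-2 (adjusted p = 0.052) and -0.36 ± 0.20 in cryopreservation-1. Cenpi, its partner in the same subcomplex, was at 3.15, 2.18 and 3.08 FPKM in fresh and 1.63, 1.66 and 1.79 FPKM in cryopreservation-2, below all fresh libraries, with -0.85 ± 0.23 (adjusted p = 0.0584). Cenpk, also of that subcomplex, had a log2 fold change of 0.33 ± 0.27. Cenpl, the partner of Cenpn, was at 0.465, 0.256 and 0.721 FPKM in fresh, 0.541, 0.665 and 1.05 FPKM in cryopreservation-1, and 1.34, 1.14 and 1.19 FPKM in cryopreservation-2. It lay above all fresh libraries, with 1.23 ± 0.41 (adjusted p = 0.112).

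Cenpq, of the subcomplex that also holds Cenpo and Cenpp, was at 11.2, 12.5 and 9.16 FPKM in fresh and 16.8, 22.4 and 27.3 FPKM in cryopreservation-2. Its libraries did not overlap, at 0.87 ± 0.26 (adjusted p = 0.0823), while Cenpo and Cenpp overlapped, at 0.22 ± 0.25 and 0.21 ± 0.30. Cenpa, the centromeric histone itself, was at 12.2, 12.3 and 8.77 FPKM in fresh, 11.6, 12.2 and 9.26 FPKM in cryopreservation-1, and 10.3, 11.0 and 9.30 FPKM in cryopreservation-2, all overlapping. Cenpn was at 295, 358 and 405 FPKM in fresh, 321, 368 and 415 FPKM in cryopreservation-1, and 491.5, 310.0 and 271 FPKM in cryopreservation-2. Its highest and its lowest library were both in cryopreservation-2, and its log2 fold change was -0.10 ± 0.27.

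The corona genes Cenpe, a kinetochore motor, and Cenpf both lay above fresh in all 3 cryopreservation-2 libraries, as 15.1% of all genes did on the CPM scale. Together they took 0.109 to 0.124% of counts there, 0.0715 to 0.0897% in fresh and 0.0738 to 0.0885% in cryopreservation-1. These shares carry no TMM scaling, and with it the fitted changes against fresh were 1.24-fold for Cenpe and 1.25-fold for Cenpf. Neither passed the test, with log2 fold changes of 0.31 ± 0.19 for Cenpe (adjusted p = 0.401) and 0.32 ± 0.17 for Cenpf (adjusted p = 0.3).

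At the spindle poles Tacc3, which with Ckap5 stabilises microtubules, was at 44.6, 35.8 and 40.8 FPKM in fresh, 44.4, 37.4 and 49.3 FPKM in cryopreservation-1, and 68.4, 66.9 and 73.2 FPKM in cryopreservation-2. Its cryopreservation-2 libraries lay above all others, with a log2 fold change of 0.65 ± 0.17 against fresh (edgeR adjusted p = 0.0521). DESeq2 and limma with either pseudocount called Tacc3 higher against fresh. Plk1, a kinase of spindle assembly, was at 135, 120.3 and 113 FPKM in fresh, 174, 153 and 129 FPKM in cryopreservation-1, and 113, 151 and 131 FPKM in cryopreservation-2. Tpx2, the activator of Aurka, was at 53.3, 49.2 and 72.1 FPKM in fresh, 45.7, 49.2 and 73.3 FPKM in cryopreservation-1, and 101, 59.7 and 50.6 FPKM in cryopreservation-2. Numa1, a spindle pole organiser, was at 5.66, 4.49 and 5.79 FPKM in fresh, 6.06, 3.79 and 4.25 FPKM in cryopreservation-1, and 4.0, 5.39 and 6.35 FPKM in cryopreservation-2. These 3, Plk4 and Ckap5 overlapped fresh in cryopreservation-2, with log2 fold changes between -0.16 and 0.16.

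The direction of the difference is given here by level. Of the 12 members with a mean of at least 50 FPKM, 10 had a negative log2 fold change in cryopreservation-2 (83.3%), against 70.6% of 888 genes of that level. Between 10 and 50 FPKM it was 5 of 14 (35.7%) against 58.7% of 2226 genes, and below 10 FPKM 8 of 22 (36.4%) against 50.3% of 14431 genes. The medians of the 12 members and of the genes of that level were -0.26 and -0.30. These signs come from TMM-scaled counts and depend on the processing for members near 0. Of the 10 negative members, Plk1, Plk4, Cenpn and Bub1b changed sign in 8, 6, 2 and 2 of 21 alternatives. Plk1, Plk4 and Cenpn had a higher mean FPKM in cryopreservation-2 than in fresh.

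**Figure D5:**
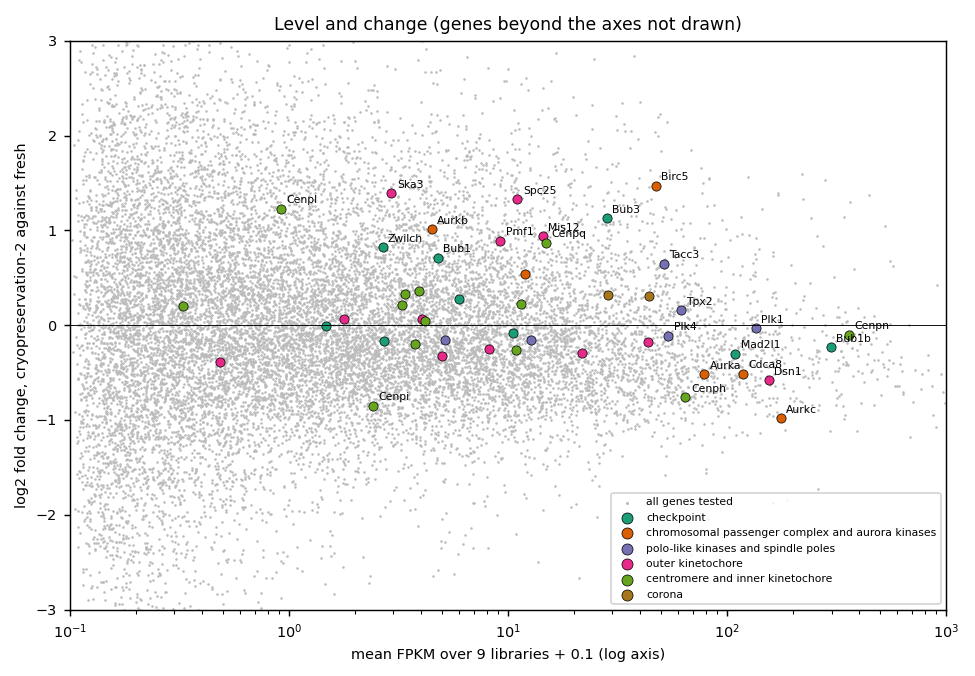
Log2 fold change in cryopreservation-2 against fresh (edgeR) and mean FPKM over 9 libraries (log axis) of the 48 tested members, coloured by role, over all tested genes in grey. Of the 12 members at 50 FPKM or more, 10 lie below 0; Tacc3 and Tpx2 lie above.

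The third comparison sets the methods against each other and is the test of whether they differ. Only Ska3 passed, higher in cryopreservation-2 (1 of 48 members; 2.75% of all genes were called). It was 2.98-fold higher, with a log2 fold change of 1.57 ± 0.34 (adjusted p = 0.0385). Leaving out any 1 of the 9 libraries ended this call, with adjusted p between 0.0511 and 0.158. Birc5 did not pass (0.82 ± 0.22, adjusted p = 0.0747), nor did Bub3 (0.59 ± 0.28, adjusted p = 0.291). Libraries did not overlap in 17 members (35.4%), against 29.0% of genes. DESeq2 called 8 members (16.7%), against 10.8% of genes, and 11 members had an unadjusted p under 0.05 (22.9%), against 18.9% of genes. The median log2 fold change of the members was 0.02.

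The genes around the members came from lists that hold no member. Of 15 checkpoint and passenger regulators, 0 passed edgeR's test in any comparison, and 3 (20%) had an unadjusted p under 0.05 in cryopreservation-2 against fresh, where 21.8% of all genes did and edgeR called 3.18% of genes higher and 2.20% lower. Of 28 other kinetochore and centromere genes, 1 rose in cryopreservation-2 against fresh: Mis18a, which prepares centromeres for CENP-A, by 2.10-fold (adjusted p = 0.0469). At an unadjusted p under 0.05 there were 6 of the 28 (21.4%), 3 higher and 3 lower. Of 23 genes of the anaphase promoting complex and its targets, 1 rose: Cdc27, a subunit of the complex. At an unadjusted p under 0.05 there were 12 of the 23 (52.2%), 5 higher and 7 lower. Cdc27 was at 22.4, 25.3 and 18.1 FPKM in fresh, 18.1, 18.9 and 18.8 FPKM in cryopreservation-1, and 44.2, 39.1 and 44.7 FPKM in cryopreservation-2. It rose 1.76-fold against fresh (adjusted p = 0.0398) and 2.19-fold against cryopreservation-1 (adjusted p = 0.0209). Leaving out 1 library in turn kept the Cdc27 call against fresh in 1 of 9 fits (adjusted p from 0.0307 to 0.133) and that against cryopreservation-1 in 5 of 9 (0.0179 to 0.106). Mis18a was called against fresh in 1 of 9 such fits (adjusted p from 0.0365 to 0.139).

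Of 36 spindle pole and microtubule nucleation genes tested, 3 rose in cryopreservation-2 against fresh and 0 fell. Over all genes, 3.18% were called higher and 2.20% lower. Of the 36, 14 (38.9%) had an unadjusted p under 0.05, 8 higher and 6 lower, against 21.8% of all genes. Aspm, a spindle pole protein, was at 8.47, 6.73 and 8.07 FPKM in fresh, 9.99, 9.05 and 11.2 FPKM in cryopreservation-1, and 20.4, 20.2 and 18.2 FPKM in cryopreservation-2, a 2.31-fold rise (adjusted p = 0.00789). Dlgap5 rose 1.94-fold (adjusted p = 0.031) and Haus8, an augmin subunit, 4.54-fold (adjusted p = 0.0368) from 0.176, 0.259 and 0.118 FPKM. Aspm and Dlgap5 also rose against cryopreservation-1 (adjusted p of 0.0292 and 0.0345). The Aspm call against fresh was kept in 9 of 9 fits without 1 library (adjusted p from 0.0145 to 0.036), and those of Dlgap5 and Haus8 in 3 of 9 each (0.0361 to 0.0976 and 0.0313 to 0.11). Against cryopreservation-1, Aspm was called in 3 of 9 (0.0338 to 0.129) and Dlgap5 in 2 of 9 (0.0287 to 0.14). None of the 4 lists had a call in cryopreservation-1 against fresh by edgeR.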

How the data were processed

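Poly(A) RNA was selected on oligo(dT) beads, and strand-marked dUTP libraries were made with PCR and no molecular identifiers, per the labels' protocols. The submitters' processing notes name cutadapt 1.9, HISAT2 2.0.4, StringTie 1.3.4d and GRCm38. Which program counted reads, whether by strand and on which annotation is not given in the sources used here. Raw counts per gene and library were deposited, per the file headers. The authors also deposited FPKM values, per the file headers, which follow the counts divided by gene length and by a factor per library. The members, roles, gene lists and tests were chosen with earlier results of these data known.

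Genes were kept by filterByExpr (minimum count 10, minimum total 15), which left 17545 of 26358. Counts were scaled by TMM and tested by edgeR's quasi-likelihood test over all 9 libraries in 1 fit, with Benjamini-Hochberg adjustment over all tested genes. Calls needed an adjusted p under 0.05 and no minimum size of change. DESeq2 1.42.0, edgeR 4.0.16 and limma 3.58.1 ran in R 4.3.3, and the scripts were tested on simulated data. A count of 0 allows up to 3 counts, 0.0372 to 0.0575 CPM, for counting error only. Replicates of a group differed beyond sampling noise (chi-square per degree of freedom 78.1 to 297).

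Values per library were given for members called in any comparison, the 10 with the highest mean FPKM, those without overlap and with a log2 fold change of at least 1 in size and a mean of at least 1 FPKM, and the defining members of each role. Zwilch, Pmf1, Ska1, Ska2, Tacc3, Ckap5, Cenpi, Cenpo, Cenpq and Knl1 were named after their values were seen. The 2 cryopreserved groups were compared with the same fresh libraries. Same-numbered fresh and cryopreservation-1 libraries deviated together (r of 0.264, 0.388 and 0.455 across genes), though the labels state no pairing. Some libraries of unlike number in other pairs of groups did so too. For cryopreservation-2 replicate 1, r was 0.452 with cryopreservation-1 replicate 3 and 0.348 with fresh replicate 3. The main fit held no term for a pairing, and a replicate block was used in alternatives only. Alternatives covered the tool, scaling, filter, pseudocount (1 and 0.1), length and GC, samples in the fit, left-out libraries and a replicate block; the block in fits of 2 groups alone was added after seeing the data.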

Additional observations from a re-analysis of the deposited data

Results flagged for a closer look

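Ska3 differed between the methods by the test of the difference itself. Its log2 change from fresh was 1.39 in cryopreservation-2 and -0.18 in cryopreservation-1, a difference of 1.57 ± 0.34 (SE; edgeR, Benjamini-Hochberg adjusted p = 0.0385), with all 3 cryopreservation-2 libraries above all 3 cryopreservation-1 libraries. Adjusted p lay between 0.000217 and 0.158 over the 21 alternatives and was past the threshold in 8 of them. The test of the same difference gave adjusted p = 0.0747 for Birc5 and 0.291 for Bub3. Each group has 3 libraries, so single libraries were not tested for standing apart in a gene.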

How the results depend on the processing

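The counts of calls depend on the tool and the libraries; the cause was not tested. Cryopreservation-1 against fresh gave 0 members called under every alternative run, and 0 genes in all except DESeq2 (43), the fit of the 2 groups alone (1), that fit with a replicate block (1) and the fits without 1 library (0 to 1). For cryopreservation-2 against fresh, 3 members and 944 genes were called, 59.1% of the genes higher. DESeq2 gave 14 members (10 higher, 4 lower) and 2471 genes (54.6% higher), and limma 8 members, all higher, with either pseudocount and 1792 (80.7% higher) or 1654 genes (78.8%). RLE scaling gave 3 members higher and Cenph lower. The fit without a filter gave 1 member, the 2 groups alone 1 member and 429 genes (82.1% higher), the length correction 2 members higher (Birc5, Bub3), 2 lower (Aurkc, Cenph) and 974 genes (57.7%), and the length and GC correction 7 members (4 higher; Aurka, Aurkc and Cenph lower) and 1343 genes (49.3%). Leaving out 1 library gave 1 member (Birc5) and 231 to 786 genes. Without the 3 libraries with most genes at 0, 0 members and 194 genes (75.3% higher) were called. With a replicate block there were 1 member and 500 genes (70.4%), and with the block on the 2 groups alone 0 and 0.

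For cryopreservation-2 against cryopreservation-1, 1 member and 483 genes were called, 54.5% higher. DESeq2 gave 8 (5 higher, 3 lower) and 1892, limma 4 and 4 members with 1175 (73.3% higher) and 1010 genes (67.7%), RLE 2 members, the length correction 5 members (4 higher, Aurkc lower; 65.2% of genes higher), and the length and GC correction 4 members (3 higher, Aurkc lower) and 866 genes. The 2 groups alone gave 0 members. Leaving out 1 library gave 0 members and 15 to 480 genes, and leaving out the 3 libraries 0 and 0. The replicate block gave 0 members and 230 genes (65.2%), and on the 2 groups alone 0 and 48 (72.9%). In both comparisons with cryopreservation-2, same-numbered libraries did not deviate together in every pair (r from -0.448 to 0.156). The labels state no pairing, and whether these libraries share an origin was not tested.

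Birc5 was called against fresh in 19 of 21 alternatives, the exceptions being the 3 libraries left out together and the block on the 2 groups alone (adjusted p = 0.114). Bub3 and Ska3 were each called in 6 of 21. Of the log2 fold changes behind 79 gene results, 1659 alternative values were computed: 1384 kept their direction and call, 167 lost the call, 45 gained it and 63 changed sign. The sign changes were all in members that were not called, for cryopreservation-2 against fresh. Limma with a pseudocount of 1 and of 0.1 gave 0.10 and 0.10 for Plk1, 0.05 and 0.06 for Ttk, 0.03 and 0.02 for Kntc1, 0.02 and 0.02 for Plk4, and 0.03 and 0.06 for Cenpm. The length correction gave 0.06 for Ttk, 0.02 for Numa1, 0.18 for Kntc1, 0.06 for Plk4, 0.01 for Ckap5 and -0.00 for Ska1. With length and GC it was 0.09 for Ttk, 0.11 for Kntc1, 0.11 for Plk4, 0.02 for Ckap5, 0.03 for Nuf2, 0.12 for Knl1 and -0.03 for Ska1. On the 2 groups alone Plk1 and Kntc1 were both 0.03; with the replicate block there, Plk1 was 0.03 and Cenpt -0.14, and with the block on 9 libraries Cenpm was 0.00 and Cenpt -0.03. Without the 3 libraries the values were 0.07 for Bub1b, 0.06 for Plk1, 0.12 for Numa1, 0.09 for Spc24, 0.12 for Nsl1, -0.04 for Ska2 and -0.04 for Cenpc1.

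Over the fits that leave out 1 library, the members with a sign change ranged as follows. Bub1b ran from -0.44 to 0.07, Cenpc1 from -0.08 to 0.24, Cenpm from -0.55 to 0.44, Cenpn from -0.41 to 0.09, Cenpt from -0.89 to 0.75 and Ckap5 from -0.23 to -0.03. Knl1 ran from -0.32 to -0.20, Kntc1 from -0.33 to 0.32, Nsl1 from -0.84 to 0.31, Nuf2 from -0.33 to -0.07, Numa1 from -0.27 to 0.02 and Plk1 from -0.12 to 0.08. Plk4 ran from -0.27 to 0.04, Ska1 from -0.22 to 0.34, Ska2 from -0.02 to 0.23, Spc24 from -0.55 to 0.01, Tpx2 from -0.20 to 0.38 and Ttk from -0.14 to 0.05.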
